A study of Mus musculus with 72 samples.

Results

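The sites described here are stretches of intergenic DNA in the mouse nucleus accumbens, the part of the ventral striatum that serves reward and motivation, where the signal for monomethylated lysine 27 of histone H3 (H3K27me1) differed after chronic social defeat stress. They are rows of the authors' deposited tables of differential sites for susceptible mice over controls and for resilient mice over controls. A row was taken when it lay on an autosome, touched no protein-coding gene body and came no nearer than 1000 bp to the start of such a gene in GENCODE release M21, on mouse build mm10. A block of chromosome 7 (5 to 35 Mb), of chromosome 12 (15 to 25 Mb) and of chromosome 4 (140 to 150 Mb) was left out. This gave 1070 of the 12127 rows of the susceptible table and 626 of the 7015 rows of the resilient table, 1696 sites out of 36113 rows in the 5 deposited tables. Intergenic here means outside the coding genes of that release. RefSeq (GRCm38.p6) draws some coding genes longer or types them otherwise, and 109 susceptible sites (10.2%) and 65 resilient sites (10.4%) lay within a RefSeq coding gene.

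The libraries are CUT&RUN libraries, in which nuclease tied to an antibody releases the DNA around a chromatin mark, and the series holds 72 of them in 21 groups. The groups used here are adult male wildtype mice of the defeat cohort, labelled susceptible, resilient or control, with 4 H3K27me1 libraries each. The libraries are numbered 26, 29, 32 and 35 for susceptible, 27, 30, 33 and 36 for resilient, and 25, 28, 31 and 34 for control mice, and per-library values below follow those orders. The labels give no strain, no age in weeks and no rule that divided susceptible from resilient mice. They do not say whether a library is one animal or a pool, so the p-values below measure only the spread between these libraries, which may be technical. The same 4 control libraries stand in both tables, so the 2 comparisons are not independent, and each table was scaled by itself.

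Lysine 27 of histone H3 is methylated by Polycomb repressive complex 2, whose catalytic subunit is Ezh2 or Ezh1, in steps from the monomethylated to the trimethylated form. The monomethylated form is known mainly from the bodies of transcribed genes, while the dimethylated and trimethylated forms cover intergenic and silenced chromatin. Intergenic DNA holds long non-coding RNA genes, small RNA genes, pseudogenes and distal regulatory elements. In bulk tissue, fewer cells of a type and less of the mark per cell cannot be told apart.

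The sequences that recur below come from the imprinted Snhg14 domain, where most copies of C/D box small nucleolar RNAs (snoRNAs) under these sites lie, and from RNA genes whose start or hairpin lies inside a site. The snoRNA sequences are GENCODE M21 transcripts of the minus strand of chromosome 7, build mm10, written 5′ to 3′ with the C box (TGATGA) and the D box (CTGA) in capitals. Snord116l4 and Snord116l5 are identical in sequence, and a susceptible site over the first copy was lower while a resilient site over the second was higher, both against controls.
Snord116l4, chr7:59889593-59889686: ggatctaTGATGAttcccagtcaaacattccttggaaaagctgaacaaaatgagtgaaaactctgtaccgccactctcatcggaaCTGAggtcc
Snord116l5, chr7:59887057-59887150: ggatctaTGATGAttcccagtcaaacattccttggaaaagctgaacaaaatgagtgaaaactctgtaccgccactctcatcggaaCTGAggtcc
Gm22584, chr7:59713534-59713625: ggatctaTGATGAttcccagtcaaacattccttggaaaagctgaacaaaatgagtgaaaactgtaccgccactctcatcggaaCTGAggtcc
Gm25120, chr7:59436149-59436227: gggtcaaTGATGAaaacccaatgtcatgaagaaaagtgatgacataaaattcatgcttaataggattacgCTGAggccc
Gm25098, chr7:59492432-59492510: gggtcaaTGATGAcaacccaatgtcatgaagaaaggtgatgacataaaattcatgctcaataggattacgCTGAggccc
Gm22584 is a 92-nt copy, and Gm25120 and Gm25098 belong to a second family of 79-nt copies.

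The microRNAs below are the annotated microRNA genes under a site that also have a mature RefSeq sequence (build GRCm38.p6, which is mm10), with bases 2 to 8, the seed, in capitals. Mir155 lies on the plus strand of chromosome 16 under a resilient site, and Mir1839 on the plus strand of chromosome 7 under a susceptible site.
mmu-miR-155-5p: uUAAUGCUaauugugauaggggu
mmu-miR-155-3p: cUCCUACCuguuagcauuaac
mmu-miR-1839-5p: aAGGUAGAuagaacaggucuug
The 3 seeds differ from each other.

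The promoter windows below hold RefSeq gene starts of non-coding or predicted genes that fell in a site (250 bases before the start and 50 after it, build GRCm38.p6). Gm41011 is shown because its start lay in a higher site in both tables, and Gm36327 because its window is identical at all 300 positions to that of Gm40364 in the next site of the same run. CG dinucleotides are in capitals.
Gm41011, plus strand, chr13:84343643-84343942: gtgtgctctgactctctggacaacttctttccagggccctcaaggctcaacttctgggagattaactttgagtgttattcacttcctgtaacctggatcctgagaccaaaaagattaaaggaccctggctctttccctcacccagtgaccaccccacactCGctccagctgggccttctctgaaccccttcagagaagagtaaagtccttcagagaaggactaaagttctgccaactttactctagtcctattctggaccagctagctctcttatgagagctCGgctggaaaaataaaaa
Gm36327, plus strand, chr6:47675332-47675631: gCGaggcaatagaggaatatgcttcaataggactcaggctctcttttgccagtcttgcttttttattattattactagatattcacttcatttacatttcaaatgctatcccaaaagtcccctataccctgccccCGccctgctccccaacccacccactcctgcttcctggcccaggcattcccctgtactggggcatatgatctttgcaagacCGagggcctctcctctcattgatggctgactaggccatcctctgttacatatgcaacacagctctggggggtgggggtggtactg
The Gm41011 window holds 2 CG dinucleotides and the Gm36327 window 3. Over the 18 genes whose start window touched a site the median was 2, against 7 over all 32851 RefSeq promoter windows of that length. Of all these windows 94.6% hold at least 1. The rule for sites leaves out rows close to the start of a GENCODE coding gene, and the 32851 windows were not restricted in that way. The 2 medians therefore compare different kinds of promoter, and no conclusion about the sites is drawn from them.

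Intergenic sites went in both directions. For susceptible mice, 567 sites were higher and 503 lower than in controls, 53% higher (exact Clopper-Pearson 95% interval 49.9 to 56, counting error only). Of the other 11054 autosomal rows, 50% were higher. For resilient mice, 381 sites were higher and 245 lower, 60.9% higher (56.9 to 64.7), beside 50.7% of the other 6385 autosomal rows. Without the sites on RefSeq coding genes the shares were 54.1% of 961 and 61.5% of 561. With scaling recomputed from all rows of the table, 50.4% of the resilient sites still past the authors' limit were higher. Those rows were listed for a difference, and centring libraries on them draws directions toward balance. That setting therefore cannot decide whether the excess comes from the authors' scaling. With control library 28 left out the resilient share was 53.1%, and without resilient library 30 it was 71%. Only 307 and 314 sites were still past the authors' limit in these settings, against 575 in a G-test rebuilt on all 8 libraries.

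All but 1 site of each table passed the authors' adjusted p of 0.05, which comes from the same G-test on pooled reads whose unadjusted p under 0.0001 decided which rows were listed. Rows past the adjusted limit numbered 12122 for susceptible mice, 4.48% of the number of windows tested (2.26% higher, 2.23% lower), and 7005 for resilient mice, 2.54% (1.31% higher, 1.23% lower). A row merges neighbouring windows, so these are ratios of rows to windows and not shares of the windows. The test across libraries, limma on log2(normalised reads + 1) fitted to all rows, gave an unadjusted p under 0.05 at 992 susceptible sites (92.7%, against 96.6% of all rows) and 597 resilient sites (95.4%, against 97.6%). Adjusted by Benjamini-Hochberg over all windows tested, limma left 0 sites in either table, the smallest adjusted p being 0.102 and 0.397. The libraries of the 2 groups did not overlap at 583 susceptible sites (54.5%, against 52.8% of all rows) and at 350 resilient sites (55.9%, against 54.7%). These shares describe rows already chosen for a difference in the same libraries.

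Changes were small. The median deposited log2 change was 0.47 at higher and -0.43 at lower susceptible sites, and 0.45 and -0.43 at the resilient ones. The largest susceptible changes were 0.93 and -0.77, and the largest resilient ones 0.66 and -0.74. Sites were short, with a median of 1100 bp in both tables. The authors' enrichment over IgG, the antibody background, had a median of 2.78 in susceptible and 1.87 in control libraries at higher sites, and of 2.02 and 2.97 at lower sites. Signal was above the antibody background at most sites. For the resilient table these medians were 2.75 against 2.03 and 2.02 against 2.93. Enrichment stayed under 1 in both groups at 27 susceptible and 18 resilient sites, of which 22 and 12 were lower.

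The share of higher sites differed with distance from coding genes. Rows on a coding gene body or close to its start were left out by the rule. Sites up to 1 kb from a coding gene therefore lay past the far end of that gene and not beside its start. The same holds for sites named below at under 1 kb from a coding gene. For susceptible mice, 30.3% of the 89 sites up to 1 kb from the nearest coding gene were higher, 48.1% of 339 sites at 1 to 10 kb, 45.9% of 307 at 10 to 100 kb, 66.8% of 235 at 100 to 500 kb and 79% of 100 beyond 500 kb. Resilient shares in the same classes were 40.9% of 66, 51.7% of 230, 68.9% of 177, 72.4% of 116 and 78.4% of 37. Higher susceptible sites lay a median of 52.1 kb from a coding gene and lower ones 12.3 kb, and higher resilient sites 23.7 kb against 4.11 kb. Neighbouring sites share libraries and are not replicates, so these shares are given with no test.

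**Figure D1:**
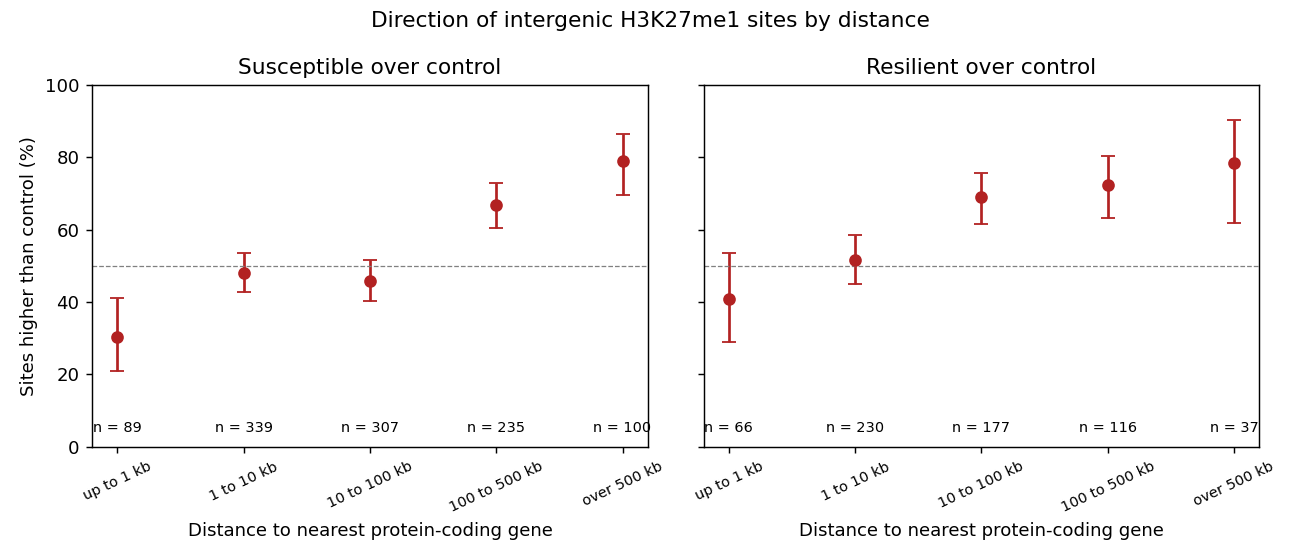
Percent of intergenic H3K27me1 sites higher than control (vertical axis) by distance class to the nearest coding gene (horizontal axis), for the susceptible and resilient tables. By the rule for sites, those up to 1 kb from a gene lie past its far end and not beside its start. Bars through the points are exact 95% intervals over sites; both series are lowest up to 1 kb, at 30.3% and 40.9%, and highest beyond 500 kb, at 79% and 78.4%.

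Library medians by distance class restate these shares and are no further support, since the rows were listed for a difference in these same reads. At the 335 susceptible sites over 100 kb from a coding gene the median site held 91.9, 99.3, 88.3 and 89.4 normalised reads in the susceptible libraries, against 78.2, 80.7, 76.8 and 79.9 in the control libraries. At the 153 such resilient sites the medians were 97.05, 96.43, 102.9 and 96.3 in the resilient libraries, against 82.98, 80.6, 80.7 and 84.5 in the control libraries. Each stressed library's median lay above each control library's in both tables. Within 10 kb of a gene the susceptible medians ran from 95.8 to 100.4 and the control medians from 100.2 to 104, and these ranges overlapped. With recomputed scaling, 64.9% of resilient sites over 100 kb away and 39.1% of those within 10 kb were higher, against 73.9% and 49.3% with the authors' scaling.

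The 5 higher susceptible sites of smallest deposited adjusted p lay 2.55 to 1490 kb from the nearest coding gene. The first was at chr14:89965601-89967500, 1490 kb from Pcdh20, a protocadherin of homophilic cell adhesion, and held 169, 205, 159.7 and 155 normalised reads in the susceptible libraries, against 102, 106, 102 and 123 in the control libraries. All susceptible libraries lay above all controls there, with a limma log2 change of 0.66 ± 0.14 (SE, n = 4 each) and an adjusted p of 2.70e-10 in the authors' deposited table. A site 292 kb from Noct, a circadian NADPH phosphatase gene, at chr3:50929901-50932100 held 199, 247, 213 and 199.7 normalised reads in the susceptible libraries, against 149.9, 115, 187 and 133 in the control libraries. Here too the groups did not overlap, although control library 31 came close to the lowest susceptible library. Near Tmprss15, the gene of the intestinal protease enteropeptidase, a site 965 kb away at chr16:80056501-80058400 held 185, 218, 165 and 152 normalised reads in the susceptible libraries, against 107, 128, 121 and 123 in the control libraries. Its groups were apart as well, with a limma log2 change of 0.57 ± 0.14.

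Cdh10, a type II cadherin of brain, lay 2.55 kb from a site at chr15:18813801-18816400, inside the lincRNA gene C030047K22Rik, that held 438, 435, 324 and 373 normalised reads in the susceptible libraries, against 279, 350.2, 284 and 292 in the control libraries. Control library 28 was above susceptible library 32, so the groups overlapped at this site. The last of the 5 was 40.4 kb from Spock3, a testican proteoglycan gene, at chr8:62907901-62910600, with 267, 256, 211 and 238 normalised reads in the susceptible libraries, against 176, 179, 158 and 179 in the control libraries. All susceptible libraries were above all controls there.

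The lower susceptible site of smallest deposited p was deep and its groups overlapped. At chr17:13549801-13554000, in the lincRNA genes 2700054A10Rik and AC174800.1 near Tcte2, it held 15542, 14272, 25337 and 19346 normalised reads in the susceptible libraries, against 18925, 16544, 23372 and 22043 in the control libraries. Susceptible library 32 was the highest of all 8, and the limma log2 change was -0.14 ± 0.16 although the authors' deposited table lists its adjusted p at 0. No mappability track was used here, so whether the reads of this site and of the sites near Ly6c2 and Gm10715 described below come from sequence present in several copies was not tested. A site 3.71 kb from Dynlt1b, a dynein light chain gene, at chr17:6440001-6443600 held 334, 298, 332 and 307 normalised reads in the susceptible libraries, against 444, 426, 423 and 378 in the control libraries. There all susceptible libraries lay below all controls, with a limma log2 change of -0.39 ± 0.13, and the site touched the RefSeq span of Dynlt1b.

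Both of the next lower sites, at chr6:114626101-114629200 and chr6:114571501-114574600, lay between Hrh1, the histamine H1 receptor gene, and Atg7, which encodes the E1-like enzyme of autophagy. The first held 482, 455, 589 and 537 normalised reads in the susceptible libraries, against 673, 629, 683 and 557 in the control libraries. The second held 654, 605, 718 and 632 normalised reads in the susceptible libraries, against 834, 779.99, 799 and 710.1 in the control libraries. At each of them 1 control library, number 34, fell inside the susceptible range. The last, 1.78 kb from Gm10715 at chr9:3040101-3042600, held 172, 161, 220.2 and 195 normalised reads in the susceptible libraries, against 251, 236, 289 and 260.1 in the control libraries, with no overlap between the groups.

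The leading higher resilient site was 0.256 kb from Etaa1, an activator of the ATR kinase at stalled replication forks, at chr11:17935701-17938500. It held 330.3, 348, 352 and 369 normalised reads in the resilient libraries, against 232, 258, 270.4 and 281 in the control libraries. All resilient libraries were above all controls, with a limma log2 change of 0.43 ± 0.13 (SE, n = 4 each) and an adjusted p of 9.21e-09 in the authors' deposited table. A site in the lincRNA gene Gm10754 at chr10:97841401-97843400 held 242, 176, 214 and 216 normalised reads in the resilient libraries, against 149.9, 152, 172 and 139.9 in the control libraries. A site between Cyp3a41b and Cyp3a41a, paired cytochrome P450 genes, at chr5:145605901-145607900 held 205, 159, 172 and 177 normalised reads in the resilient libraries, against 108, 142, 122 and 142 in the control libraries. Groups were apart at both. The other leading sites, 2.57 kb from Slc4a1ap and 59.9 kb from Pcdh10, overlapped by 1 control library each.

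The leading lower resilient site by deposited p lay 20.3 kb from Ly6c2, a GPI-anchored surface antigen gene of leukocytes, at chr15:75085201-75087900, and held 9399, 9682, 9772 and 9634 normalised reads in the resilient libraries, against 9592, 10714, 10428 and 10588 in the control libraries. Control library 25 fell within the resilient range, and the limma log2 change was -0.10 ± 0.13. The next was 14.3 kb from Ide, the insulin-degrading enzyme gene, at chr19:37352201-37354600, with 189.8, 229, 215 and 184 normalised reads in the resilient libraries, against 255, 262, 284 and 294 in the control libraries. All resilient libraries lay below all controls there. A site 0.075 kb from Jmjd1c, a JmjC-domain demethylase gene, at chr10:67256401-67258600 held 231, 236, 199.9 and 197 normalised reads in the resilient libraries, against 273, 244, 295 and 309 in the control libraries. Its groups did not overlap either.

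Near Brk1, a subunit of the WAVE complex of actin assembly, a site at chr6:113602101-113603400 held 60.4, 50.99, 51.9 and 86.7 normalised reads in the resilient libraries, against 90.5, 77.04, 125 and 98.1 in the control libraries. It had the largest fold of the 5, -0.65 ± 0.16 on the limma log2 scale, but resilient library 36 lay inside the control range. The last site overlapped Zfp939, a transcribed pseudogene in GENCODE M21 and a coding gene in RefSeq, near Zfp619, at chr7:39473101-39474900. It held 119, 88.7, 132 and 106 normalised reads in the resilient libraries, against 147, 177, 153 and 151 in the control libraries, with groups apart.

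**Figure D2:**
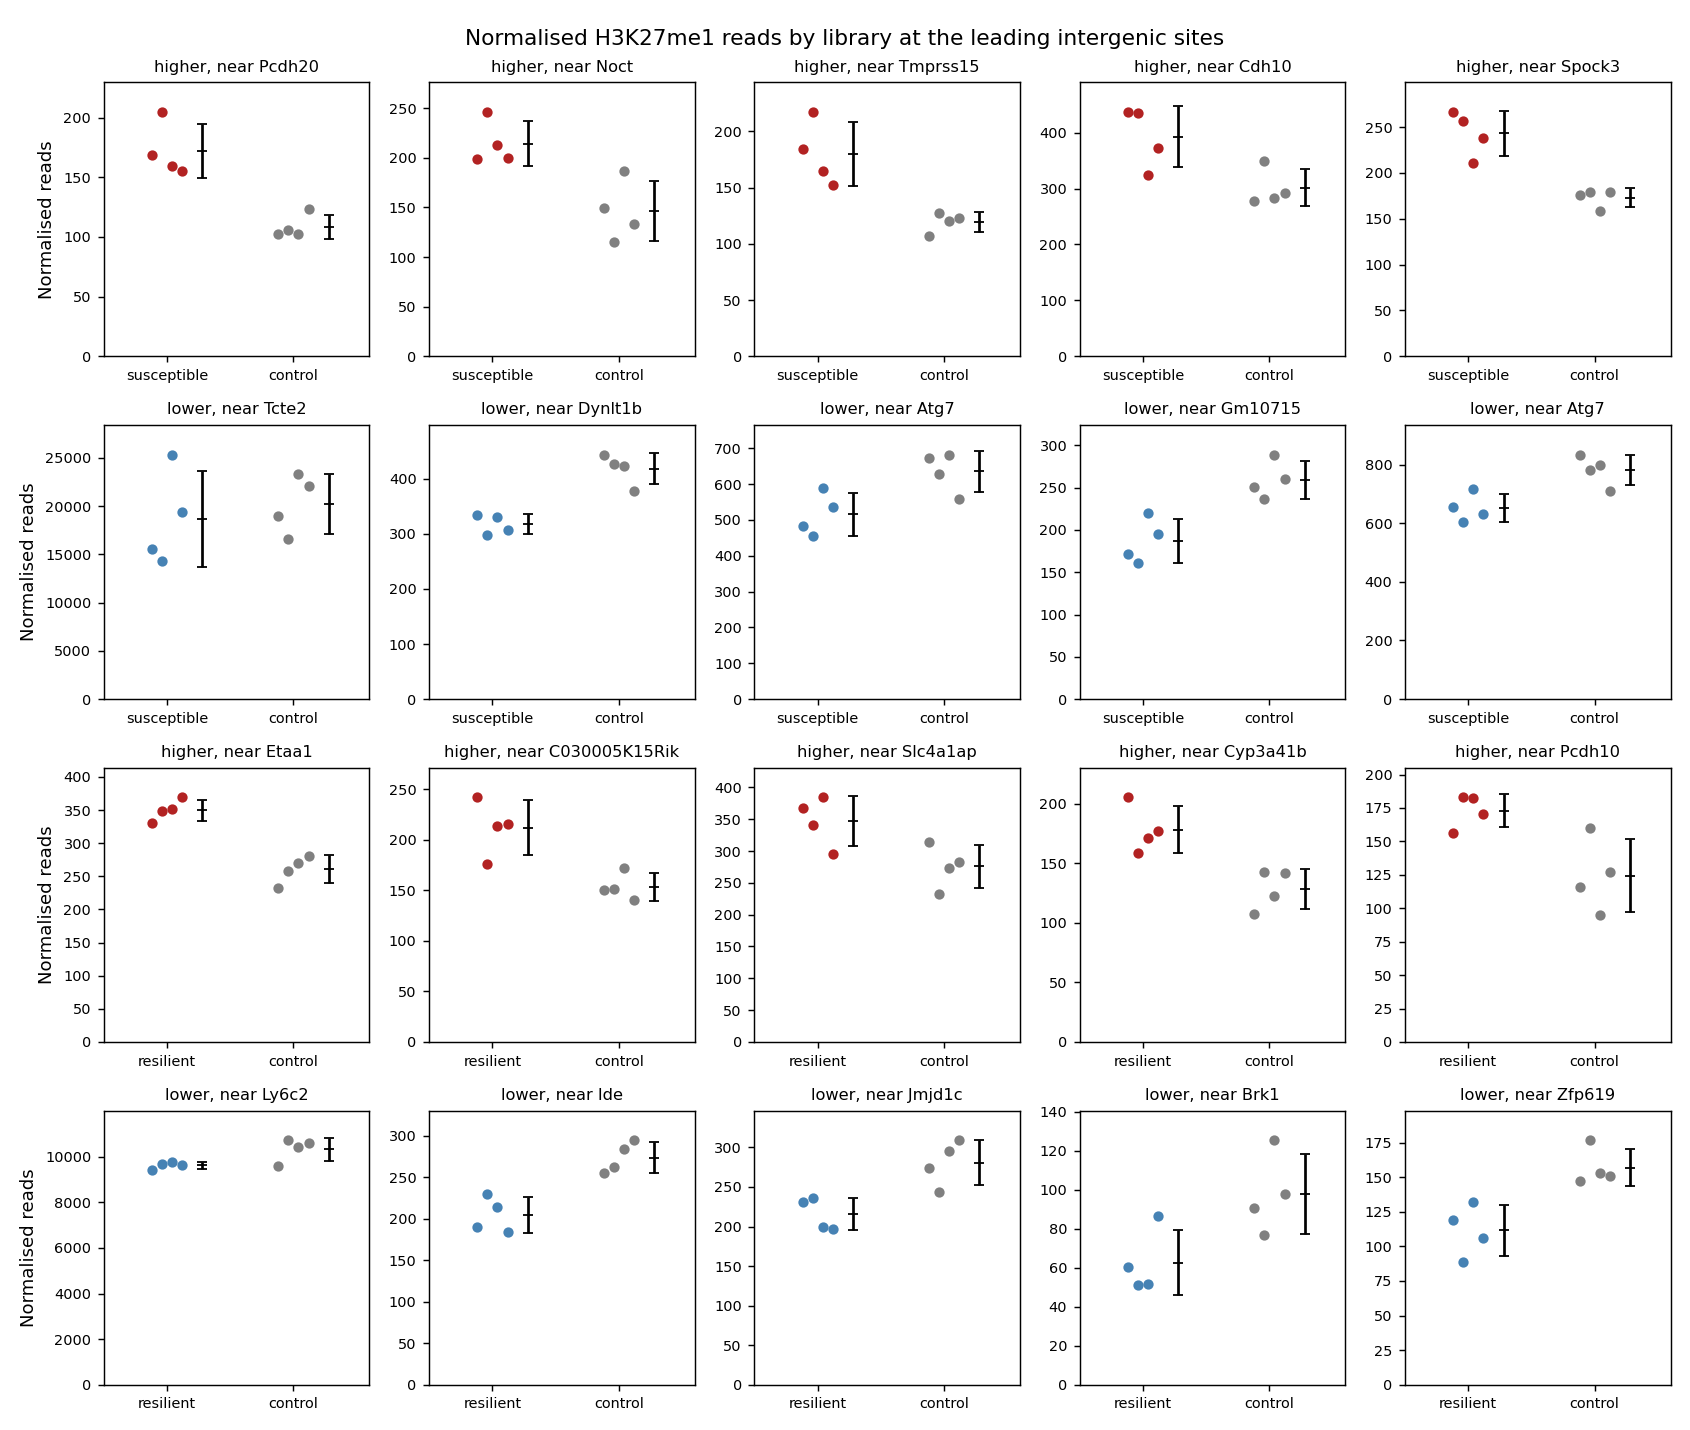
Normalised reads per library (vertical axis, linear from 0) at the leading higher and lower intergenic sites of each table, named by nearest coding gene. Each point is 1 library, stressed libraries (red at higher, blue at lower sites) left of controls, with bars for the mean ± SD of 4; at the Pcdh20 site the susceptible libraries sit between 155.02 and 204.99 and the controls between 102.06 and 123.38.

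Sites came in runs. Joining sites 100 kb or less apart, 55 runs of at least 3 sites held 302 susceptible sites (28.2%), of which 15 runs were all higher, 19 all lower and 21 mixed. The resilient table had 31 runs holding 145 sites (23.2%), with 14 all higher, 3 all lower and 14 mixed. Of neighbouring susceptible sites within 100 kb of each other 79.9% shared their direction, beside 81.2% of other autosomal rows, and of resilient ones 64.1% beside 62.9%. Sums over runs and genes below add up rows already listed for a difference in these same libraries. Groups that lie apart in such sums are therefore no further support.

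The longest susceptible run ran from Ube3a to Gm38393 inside Snhg14 and is taken up with that domain below. The second held 15 lower sites over 129.3 kb of chromosome 6 between Hrh1 and Atg7. Summed over the run the reads were 4282, 3851, 5034 and 4205 in the susceptible libraries, against 5679, 4896, 5562 and 4743 in the control libraries. Susceptible library 32 lay above control libraries 28 and 34, so the sums overlapped although each site was lower in the deposited table. Of the 9 sites nearest to Atg7, 0 had all susceptible libraries below all controls.

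The third held 14 lower sites over 139.3 kb between Ezh2, the catalytic subunit of Polycomb repressive complex 2, and Pdia4, a protein disulfide isomerase gene. Its summed reads were 4086, 3852, 4921 and 4343 in the susceptible libraries, against 5011, 4371, 6180.3 and 5462 in the control libraries. Susceptible library 32 again lay among the controls. The median deposited enrichment over IgG was 0.645 in susceptible and 0.625 in control libraries, so the signal there was below the antibody background. The 5 resilient sites between the same genes were also all lower, with summed reads of 1285, 1045, 1346 and 1273 in the resilient libraries, against 1342, 1292, 1729 and 1543 in the control libraries. Their groups overlapped too, and their median deposited enrichment was 0.60 in resilient and 0.70 in control libraries. The starts of Gm36327 and Gm40364, whose windows are identical in sequence, lie in 2 neighbouring susceptible sites of the run. The Gm36327 site at chr6:47674801-47677000 held 392, 375, 473 and 424 normalised reads in the susceptible libraries, against 525, 445, 611 and 537 in the control libraries. The groups overlapped by control library 28.

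Among the longer runs of higher susceptible sites, that around Pcdh10, a delta protocadherin, held 10 higher sites over 164.4 kb, with summed reads of 1447, 1448, 1176 and 1433 in the susceptible libraries, against 976, 1111, 895 and 1059.8 in the control libraries. All susceptible sums lay above all control sums. Between Gli3, a transcription factor of hedgehog signalling, and Inhba, the activin beta A subunit gene, 8 of 9 sites were higher, with 1286, 1385, 1156 and 1206 in the susceptible libraries, against 987, 916, 938 and 1008 in the control libraries. These sums were apart too. Between Cdh19, a type II cadherin gene, and Dsel, an enzyme of dermatan sulfate synthesis, 8 sites over 87.7 kb were all higher, with 1266, 1310.3, 980.1 and 1122 in the susceptible libraries, against 849.6, 998, 795 and 895 in the control libraries, where susceptible library 32 fell just below control library 28.

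The longest resilient run held 18 sites over 453.3 kb of chromosome 17 between Unc93a and Tcte2, 15 of them higher. Its summed reads were 5351, 3989, 5446 and 4948 in the resilient libraries, against 4307, 3809, 4577 and 4738 in the control libraries, so resilient library 30 lay among the controls. In the susceptible table the sites between Unc93a and Tcp10c formed a run of 10, all lower, with 2554, 2341, 3653 and 3054 in the susceptible libraries, against 3260.5, 2829.6, 3745 and 3720 in the control libraries. Here susceptible libraries 32 and 35 lay above control library 28.

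The third resilient run, between Gm10139 and Gm10772, held 5 higher and 2 lower sites. Its sums were 683, 682, 759 and 726 in the resilient libraries, against 606, 642, 578 and 623 in the control libraries, with all resilient sums above all controls. Between Dynlt1b and Dynlt1c, 7 sites inside the lincRNA gene Gm26848 were all lower, 5 of them also on the pseudogene Tmem181b-ps, with 878, 836, 1036 and 696 in the resilient libraries, against 1112, 1295, 1074 and 1035 in the control libraries. Resilient library 33 fell just above control library 34 there. Between Gm12887 and 9530002B09Rik, 6 sites were all higher with 841, 707, 868 and 773 in the resilient libraries, against 581, 595, 553 and 658 in the control libraries, and the 5 sites between Cyp3a41b and Cyp3a41a were all higher with 701, 622, 723 and 760.1 in the resilient libraries, against 478, 504, 493 and 597 in the control libraries. At both of these the groups were apart.

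**Figure D3:**
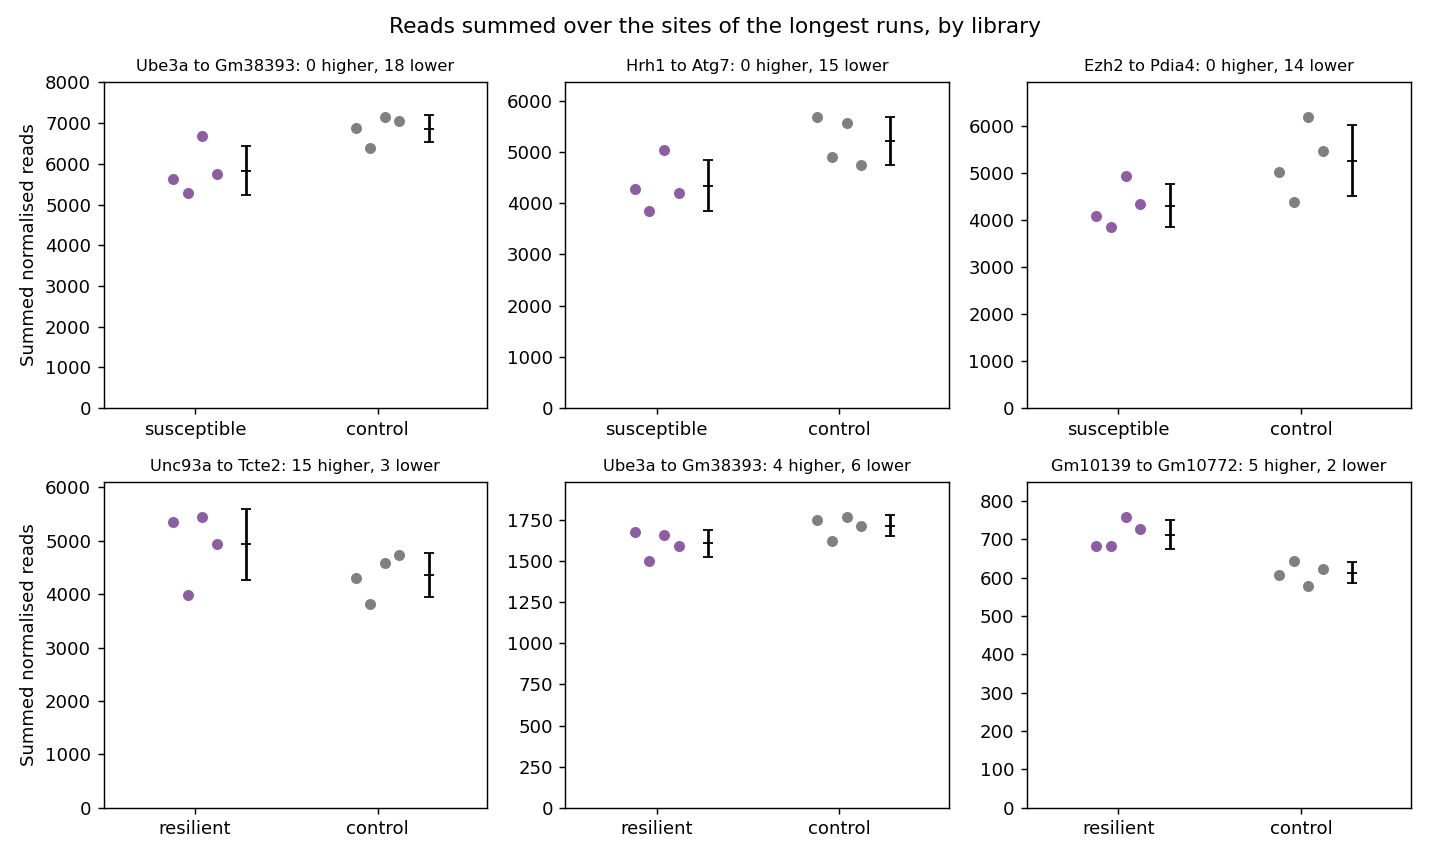
Reads summed over the sites of a run (vertical axis), 1 point per library, with stressed libraries left of controls and bars for the mean ± SD of 4, for the 3 longest runs of the susceptible table (top) and of the resilient table (bottom). Between Gm10139 and Gm10772 all resilient sums lie above all control sums, and in the other 5 runs the groups overlap.

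Snhg14, a long non-coding RNA whose transcript is read antisense to the ubiquitin ligase gene Ube3a from the paternal chromosome and which hosts C/D box snoRNAs, held more sites than any other non-coding gene in either table. The gene spans chr7:59307924-59975759 on the minus strand. Of the susceptible sites, 24 lay in it, 4 of them on an exon, and all 24 were lower, by a median deposited log2 change of -0.30 (from -0.49 to -0.13). At 13 of the 24 every susceptible library lay below every control, beside 252 of all 503 lower intergenic susceptible sites. Over all rows of the table, higher ones included, the share was 26.4%. An unadjusted limma p under 0.05 was found at 16 of the 24, a smaller share than the 92.7% of intergenic susceptible sites and the 96.6% of all rows. Summed over the 24 sites the libraries held 6158, 5813, 7245 and 6295 normalised reads in the susceptible libraries, against 7578, 7126, 7888 and 7713 in the control libraries. The sums overlapped by susceptible library 32 alone, which stood above control library 28.

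Of the resilient sites, 10 lay in Snhg14, 4 higher and 6 lower. Summed over them the libraries held 1680.5, 1499, 1659 and 1594 normalised reads in the resilient libraries, against 1752, 1625, 1769.7 and 1717 in the control libraries, and the groups overlapped at resilient libraries 27 and 33. The sites that the tables share or nearly share went both ways. Over the snoRNA gene Gm22255 the susceptible site at chr7:59510501-59511900 held 115, 104, 115 and 96.7 normalised reads in the susceptible libraries, against 149.9, 127, 133 and 122 in the control libraries. The resilient site at chr7:59510501-59512000 held 102, 106, 136 and 118 normalised reads in the resilient libraries, against 165, 143, 146 and 133 in the control libraries, so it was lower as well, with resilient library 33 inside the control range. Over Gm26365 both tables again had a lower site with no overlap between groups, 123, 111, 122 and 130.4 normalised reads in the susceptible libraries, against 136, 154, 169 and 137 in the control libraries and 117, 77.6, 102 and 129 normalised reads in the resilient libraries, against 146, 149, 146 and 133 in the control libraries.

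Copies of snoRNA genes lay under 15 susceptible sites, 1 gene each, and all 15 were lower. Resilient sites touched 7 snoRNA genes, 3 higher and 4 lower. The 94-nt copies number 11 genes with 7 distinct sequences and 94.7% to 100% identity between pairs, and Snord116l13, Snord116l7, Snord116l6, Snord116l4 and Snord116l5 are identical. The 79-nt copies number 7 genes with 5 distinct sequences and 92.4% to 100% identity. Reads that lie wholly within identical copies cannot be placed on one of them, and the reads here are those the authors kept, so values of single copies are uncertain. The C box starts at base 8 in every copy.

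At the copy shown first above, Snord116l4, the susceptible site at chr7:59887501-59889800 held 302, 295, 344 and 330.1 normalised reads in the susceptible libraries, against 425, 358, 409.6 and 404 in the control libraries. All susceptible libraries were below all controls, with a limma log2 change of -0.33 ± 0.13. The resilient site over the identical copy Snord116l5, at chr7:59886901-59887900, held 192, 183, 237 and 209 normalised reads in the resilient libraries, against 141, 128, 207 and 194 in the control libraries. It was higher in the deposited table, but control libraries 31 and 34 lay inside the resilient range and the limma log2 change was 0.31 ± 0.15. The 2 sites overlap by 400 bp, and whether the susceptible and resilient changes differ was not tested.

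Sites touching the other printed copies had the groups apart. The susceptible site over Gm22584 held 92.9, 90.3, 108 and 117 normalised reads in the susceptible libraries, against 117, 131, 153 and 148 in the control libraries. The susceptible site over Gm25120, at the far end of the gene, held 59.3, 57.8, 60.5 and 68.4 normalised reads in the susceptible libraries, against 84.6, 85.3, 92.8 and 79.9 in the control libraries. The resilient site at chr7:59492501-59494000 takes in only the edge of Gm25098. It held 144, 144, 138 and 134 normalised reads in the resilient libraries, against 101, 101, 101 and 107 in the control libraries, higher with a limma log2 change of 0.45 ± 0.13. The deepest site of the gene was the susceptible one over Gm23953, with 1013, 879, 1169 and 1018 normalised reads in the susceptible libraries, against 1152, 1085, 1216 and 1167 in the control libraries, where the groups overlapped and the limma log2 change was -0.19 ± 0.14.

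Beyond Snhg14 the same imprinted region goes on to Ndn, a MAGE family gene expressed from the paternal chromosome. Between Snrpn, which encodes a small nuclear ribonucleoprotein, and Ndn, 7 resilient sites lay, 5 higher and 2 lower, and the 5 higher ones formed a run with summed reads of 619, 529, 548 and 568 in the resilient libraries, against 434, 462, 382 and 389.7 in the control libraries. All resilient sums lay above all control sums. Susceptible sites in that interval numbered 6, 2 higher and 4 lower. Of the lower ones, the site with the largest deposited log2 change lay at chr7:61809101-61810200 in the lincRNA gene A230057D06Rik, with 58.3, 65.02, 85.9 and 62.01 normalised reads in the susceptible libraries, against 96.5, 93.3, 103 and 90.5 in the control libraries, and the groups were apart.

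**Figure D4:**
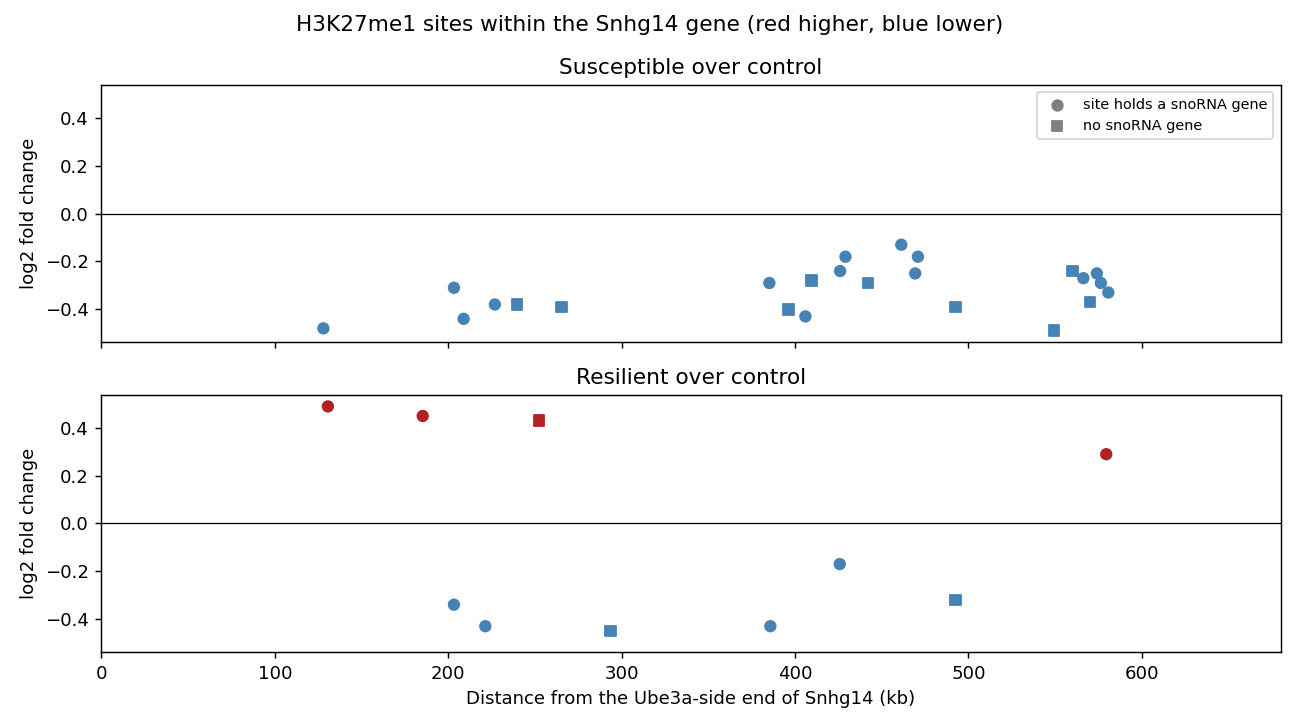
Deposited log2 change of H3K27me1 (vertical axis) at intergenic sites against distance in kb from the low end of Snhg14 (horizontal axis), for the susceptible (top) and resilient (bottom) tables, with circles for sites that hold a snoRNA gene and squares for the others. The 24 susceptible sites within the gene all lie below 0, between -0.49 and -0.13, and the 10 resilient sites lie on both sides.

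Non-coding genes and pseudogenes of all kinds lay under 243 susceptible sites, 215 genes in all, with 117 sites higher and 126 lower. The corresponding resilient sites numbered 144, on 134 such genes, 79 higher and 65 lower. Long non-coding RNA classes made up 169 susceptible sites (83 higher, 86 lower) and 104 resilient sites (55 and 49). Higher and lower sites were both common among these RNA genes. Pseudogenes made up 74 susceptible sites (31 and 43) and 40 resilient sites (21 and 19). A list of 26 long non-coding RNAs known from brain, of which 25 are annotated, was matched only to nearest coding genes. Its count of 0 in both tables was fixed by that choice and says nothing about overlap with sites.

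After Snhg14 the susceptible non-coding genes with most sites were all mostly higher. 2610316D01Rik, beside Pcdh10 on the minus strand of chromosome 3, held 9 higher sites with summed reads of 1300, 1295, 1041 and 1256 normalised reads in the susceptible libraries, against 874, 1000, 794 and 929 in the control libraries. All susceptible sums were above all controls. B230303A05Rik, a transcribed pseudogene between Gli3 and Inhba, held 7 higher sites and 1 lower, with 1206, 1290.5, 1079 and 1119.8 normalised reads in the susceptible libraries, against 921, 868, 877 and 949 in the control libraries. Its groups were apart too.

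Zswim6, typed as a processed transcript next to Ndufaf2 in GENCODE M21 and as a coding gene in RefSeq, held 5 higher sites and 1 lower, with 687, 705, 693 and 674 normalised reads in the susceptible libraries, against 559, 508, 594 and 581 in the control libraries. Gm10754, a lincRNA gene near C030005K15Rik, held 4 higher sites and 1 lower, with 484, 603, 532 and 514 normalised reads in the susceptible libraries, against 446, 459.7, 446 and 407 in the control libraries. At both genes all susceptible sums were above all controls.

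Gm26848 and Tmem181b-ps followed Snhg14 among the resilient sites, with 7 and 5 lower sites in the Dynlt1b run. Tmem181b-ps held 609.6, 607, 727 and 477 normalised reads in the resilient libraries, against 779, 958, 731 and 709.5 in the control libraries. Resilient library 33 was inside the control range. The lincRNA gene 2700054A10Rik held 3 higher sites and 1 lower, with 2706, 1772, 2671 and 2376 normalised reads in the resilient libraries, against 2226, 1870.2, 2405 and 2389 in the control libraries. Resilient libraries 27 and 33 were above all controls and library 30 below all of them, so the groups overlapped. 2610316D01Rik held 3 higher sites, with 371, 367, 348 and 369 normalised reads in the resilient libraries, against 254, 294, 241 and 256 in the control libraries, where the groups were apart.

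MicroRNA genes were few. The resilient site over Mir155, a microRNA of activated immune cells, at chr16:84713701-84714700 held 129, 169.6, 131 and 158 normalised reads in the resilient libraries, against 207, 203, 170.1 and 158 in the control libraries. Resilient library 30 lay inside the control range, and the authors' deposited table gave an adjusted p of 0.0029. The susceptible site over Mir1839 at chr7:81528701-81530000 held 106, 110.2, 117 and 86.6 normalised reads in the susceptible libraries, against 147, 116, 139 and 143 in the control libraries. Susceptible library 32 lay above control library 28, so the groups overlapped. At the Gm41011 start, shown above, the susceptible site held 85.9, 89.4, 84.7 and 89.4 normalised reads in the susceptible libraries, against 63.5, 54.1, 56.5 and 71.9 in the control libraries. The resilient site held 96.2, 94.2, 106 and 82.8 normalised reads in the resilient libraries, against 76.4, 60.4, 71.96 and 68.1 in the control libraries. All stressed libraries were above all controls in both tables.

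The nearest coding gene was a different one for most sites. Susceptible sites had 716 nearest genes, 575 of them with a single site, and resilient sites 456, 364 of them with a single site. Gm38393, the gene at the end of Snhg14, was nearest to 18 susceptible sites, all lower. Mms22l, a replication repair factor gene, was nearest to 16 (13 higher, 3 lower), Pcdh10 to 15 higher, Zfp386, a zinc finger gene, to 13 (3 higher, 10 lower) and Dsel to 11 higher.

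Summed over its 15 sites, Pcdh10 had 2005, 2012, 1621 and 1923 normalised reads in the susceptible libraries, against 1351, 1492, 1244 and 1413 in the control libraries. Dsel had 1573, 1693, 1277 and 1432 normalised reads in the susceptible libraries, against 1067, 1218, 1026 and 1139 in the control libraries over its 11 sites. All susceptible sums lay above all controls at each. As with the runs, such sums restate rows listed for a difference in these libraries. At 6 of the 15 Pcdh10 sites and 3 of the 11 Dsel sites every susceptible library was above every control, beside 331 of all 567 higher intergenic susceptible sites. Over all rows, lower ones included, the share was 26.4%. Further genes with several higher sites were Inhba, Rarb and Slitrk5, 7 sites each, which encode an activin subunit, a retinoic acid receptor and a synaptic adhesion protein.

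Rarb had 656, 632, 649.8 and 627 normalised reads in the susceptible libraries, against 469.9, 382, 530.1 and 477 in the control libraries. Slitrk5 had 862, 890.4, 659 and 714 normalised reads in the susceptible libraries, against 592, 611, 573 and 516 in the control libraries. The groups were apart at both genes, and 6 of the 7 Rarb sites lay within the longer RefSeq span of Rarb. Atg7 and Pdia4, nearest to 9 lower sites each, had 0 and 1 sites with groups apart.

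Tcp10c, a t-complex gene, was nearest to 11 resilient sites, all higher, with 2166, 1834, 2265 and 2076 normalised reads in the resilient libraries, against 1649, 1526, 1681 and 1825 in the control libraries. All resilient sums lay above all controls, with control library 34 closest to resilient library 30. Zfp386 was nearest to 10 sites 413 to 1246 kb away, 9 of them higher, with 987, 948, 1002 and 990.4 normalised reads in the resilient libraries, against 804, 712, 747 and 787 in the control libraries. Its groups were apart. In the susceptible table the 13 Zfp386 sites, 519 to 1237 kb away, held 894, 849, 996 and 967 normalised reads in the susceptible libraries, against 1082, 1168, 1140.3 and 1174 in the control libraries, all susceptible sums below all controls. Runs of these sites lay between Adam6a and Zfp386 and touched the immunoglobulin V pseudogenes Ighv1-30 (susceptible) and Ighv1-57 (resilient). Only genes typed as protein-coding counted as nearest, so the distances to Zfp386 pass over immunoglobulin gene segments. All 13 susceptible sites count in the class beyond 500 kb above. Whether their reads come from sequence present in several copies was not tested.

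Gm12887 likewise was nearest to 8 resilient sites, all higher, and to 6 susceptible sites, all lower. The resilient sums were 1019.9, 868, 1045 and 958 normalised reads in the resilient libraries, against 686, 712, 676 and 782 in the control libraries. The susceptible sums were 563, 521, 668 and 657 normalised reads in the susceptible libraries, against 762, 798, 865 and 824 in the control libraries. Both tables had their groups apart, on opposite sides of the shared controls, and the difference between the changes was not tested. The susceptible and resilient sites nearest to Gm12887 did not overlap each other, so the sums cover different bases. Pcdh10 was nearest to 5 resilient sites, all higher as in the susceptible table, with 589, 587, 527 and 609.8 normalised reads in the resilient libraries, against 422, 461, 381 and 412 in the control libraries.

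Gene lists chosen with earlier results of these data known were used to group nearest genes, and are described by counts beside the 53% and 60.9% of all sites that were higher. For cadherins and protocadherins, 14 of 22 genes were nearest to 40 susceptible sites, 38 of them higher, at a median deposited log2 change of 0.48 and a median distance of 331 kb. Among resilient sites, 6 of these genes had 12, 11 higher. Synaptic adhesion genes numbered 13 of 56 with 32 susceptible sites, 30 higher, and 6 with 9 resilient sites, 6 higher. Beside these counts, 70.4% of all susceptible sites over 100 kb from a gene were higher.

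Among synaptic adhesion genes, Negr1, a GPI-anchored adhesion molecule gene, had a susceptible site 455 kb away at chr3:156105501-156106600 with 109, 146, 79.9 and 93.01 normalised reads in the susceptible libraries, against 70.8, 64.5, 70.4 and 59.5 in the control libraries. The groups were apart. Tenm3, a teneurin of synaptic partner matching, had a resilient site 692 kb away with 131, 96.4, 116 and 95.4 normalised reads in the resilient libraries, against 80.2, 84.2, 82.9 and 57.2 in the control libraries. All resilient libraries were above all controls. Pcdh20 had a resilient site 75.2 kb away with 81.7, 102, 106 and 101 normalised reads in the resilient libraries, against 54.7, 77.04, 57.8 and 82.7 in the control libraries, where resilient library 27 lay just below control library 34.

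Glutamate and GABA receptor genes were nearest to 12 susceptible sites, all higher, for 5 of 32 genes. Grik2, a kainate receptor gene, had one 305 kb away with 66.2, 112, 75.02 and 88.5 normalised reads in the susceptible libraries, against 45.1, 70.3, 43.7 and 57.7 in the control libraries. The groups overlapped by a control library. Of the same list, 4 genes had 5 resilient sites, 3 higher and 2 lower.

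One of the lower ones, 5.86 kb from the GABA-A subunit gene Gabrb2 at chr11:42412601-42413900, held 84.3, 88.7, 74.5 and 75.2 normalised reads in the resilient libraries, against 117, 110.2, 102 and 109.9 in the control libraries. The other named site, 346 kb from the GABA-A subunit gene Gabrg1, held 71.5, 94.2, 82.3 and 79 normalised reads in the resilient libraries, against 42.4, 61.6, 54.5 and 68.1 in the control libraries. The first had all resilient libraries below and the second all above the controls.

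Axon guidance genes had 9 susceptible sites, 8 higher, for 5 of 38 genes, and 2 resilient sites, both higher. Robo2, a Slit receptor gene, had a susceptible site 243 kb away with 91.9, 87.6, 82.3 and 76.6 normalised reads in the susceptible libraries, against 48.7, 56.5, 55.5 and 63.9 in the control libraries. Robo1, its relative, had a resilient site 74.5 kb away with 82.6, 90.9, 70.6 and 73.2 normalised reads in the resilient libraries, against 47.1, 61.6, 49.1 and 59.05 in the control libraries. Groups were apart at both, and both sites lay within the longer RefSeq spans of these genes. Epha7, an ephrin receptor gene, had a susceptible site 0.102 kb away with 119.5, 107, 131 and 102 normalised reads in the susceptible libraries, against 80, 71.4, 66.1 and 112 in the control libraries, where control library 34 lay inside the susceptible range.

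Ion channel genes had 10 susceptible sites, 8 higher, for 6 of 37 genes, and 5 resilient sites, 3 higher. Kcnt2, a sodium-activated potassium channel gene, had a susceptible site 501 kb away with 89.9, 99.3, 71.4 and 69.3 normalised reads in the susceptible libraries, against 58.9, 59.9, 38.4 and 47.9 in the control libraries. Cacna2d1, a calcium channel auxiliary subunit gene, had a lower resilient site 75.5 kb away with 74.9, 74.3, 56.8 and 74.2 normalised reads in the resilient libraries, against 98.1, 81.8, 102 and 118 in the control libraries. The groups were apart at both.

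Developmental transcription factors had 12 susceptible sites, 11 higher, for 4 of 73 genes, and 6 resilient sites, all higher, for 3. Mef2c, a transcription factor of neuronal activity, had a susceptible site 474 kb away with 88.9, 78.6, 68.97 and 98.5 normalised reads in the susceptible libraries, against 58.9, 53, 55.5 and 61.2 in the control libraries and a resilient one 105 kb away with 84.3, 104, 92.1 and 83.8 normalised reads in the resilient libraries, against 81.1, 60.4, 47.98 and 69.95 in the control libraries. Stressed libraries were above all controls at each. The list of glucocorticoid, stress and neurotrophin genes had 2 susceptible sites, near Nr3c2, the mineralocorticoid receptor gene, and Oprk1, the kappa opioid receptor gene, and 0 resilient sites. The Oprk1 site held 86.9, 88.5, 89.5 and 81.2 normalised reads in the susceptible libraries, against 52.4, 54.1, 82.1 and 60.4 in the control libraries, and control library 31 fell inside the susceptible range.

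Of the Polycomb and H3K27 methylation list of 28 genes, Ezh2 alone was nearest to a site, 5 susceptible and 2 resilient, all lower and within the run below IgG background described above. Marker genes of striatal neurons, oligodendrocytes, microglia and vascular cells were nearest to 0 sites in either table. Of astrocyte markers, Aqp4, a water channel, was nearest to 1 resilient site, 70 kb away, with 93.7, 109, 109 and 111 normalised reads in the resilient libraries, against 78.3, 60.4, 90.5 and 78.1 in the control libraries, where the groups were apart. CUT&RUN measures no RNA, so the tissue label was not checked against expressed markers.

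**Figure D5:**
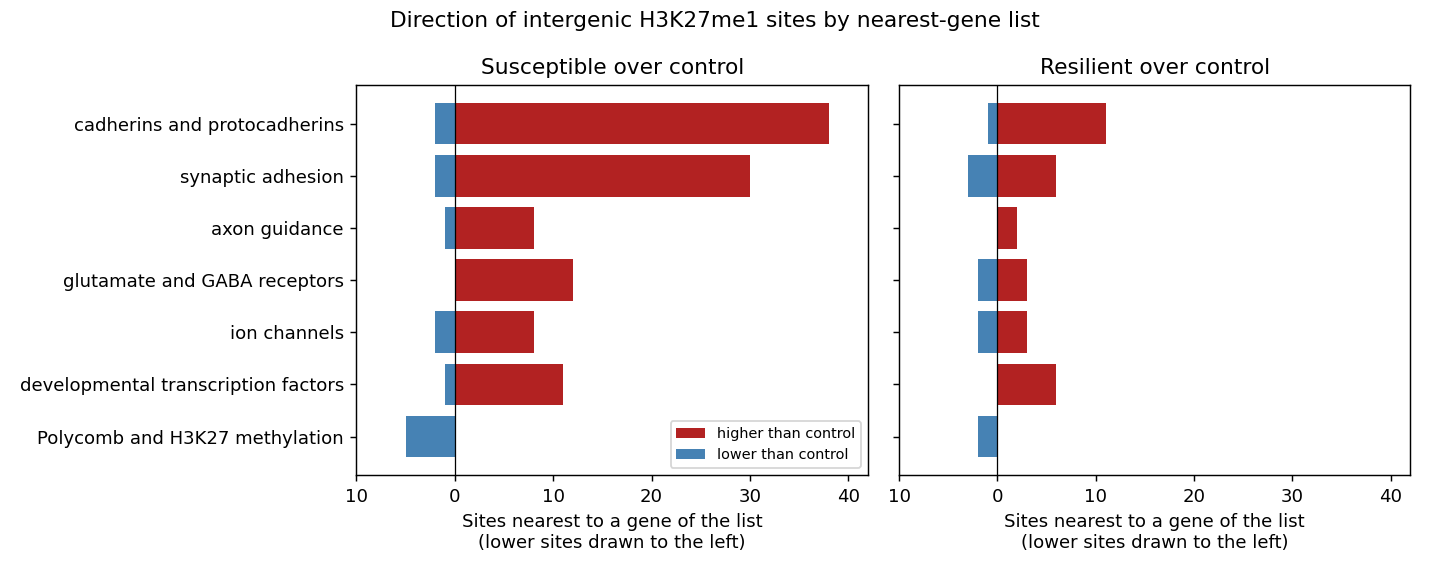
Number of intergenic sites higher and lower than control (horizontal axis) whose nearest coding gene belongs to each gene list (rows), for the susceptible and resilient tables. Cadherins and protocadherins have 38 higher and 2 lower susceptible sites, and 11 higher and 1 lower resilient sites.

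The sites farthest from any coding gene lay in gene deserts. At chr14:90908201-90909800, 2100 kb from Pcdh9, the susceptible site held 141, 169.8, 140.4 and 124 normalised reads in the susceptible libraries, against 124, 79.5, 106 and 110.1 in the control libraries. Susceptible library 35 lay just below control library 25. Near by in the same desert, the farthest resilient site at chr14:90854101-90855300 held 95.3, 87.6, 108 and 91.5 normalised reads in the resilient libraries, against 78.3, 67.6, 53.4 and 69.04 in the control libraries, with all resilient libraries above all controls.

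A pair of susceptible sites in the lincRNA gene C130073E24Rik lay 2030 and 2020 kb from Tenm3. The second, at chr8:50865901-50867800, held 164, 149.9, 161 and 155 normalised reads in the susceptible libraries, against 118, 118, 105 and 88.8 in the control libraries with groups apart. The first held 103, 138, 77.4 and 89.4 normalised reads in the susceptible libraries, against 70.8, 80.7, 78.9 and 79 in the control libraries, with susceptible library 32 inside the control range. The other far resilient sites overlapped between groups: 91.9, 126, 144 and 130.1 normalised reads in the resilient libraries, against 167, 113, 179.9 and 149.9 in the control libraries at 1730 kb from Sel1l, where enrichment over IgG was below 1, and 68.96, 70.9, 85.3 and 78.04 normalised reads in the resilient libraries, against 71.7, 66.4, 23.99 and 41.8 in the control libraries at 1720 kb from Cntnap5a.

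At the edge of the rule, 1 row on each side is given for each table, and all of them were lower. The susceptible site nearest a coding gene lay 13 bp from Sbf2 and held 87.5 ± 13.7 normalised reads in the susceptible group, against 117 ± 12 in the control group (SD, n = 4 each), while a row just outside overlapped Rev3l by 11 bp and held 92.8 ± 10.8 and 121 ± 14. For resilient mice the site 7 bp from Ktn1 held 101 ± 12.3 in resilient and 142 ± 6.88 in control libraries, and the row overlapping Zcchc10 by 1 bp held 84.8 ± 5.63 and 112 ± 17.

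Of the intergenic sites 119 susceptible ones (11.1%) and 118 resilient ones (18.8%) overlapped each other by at least 1 bp, 10 of them with the same coordinates. In 54 pairs both were higher, in 61 both lower and in 4 the directions differed. Because the pairs share the 4 control libraries, their likeness is no result, and values are given side by side. The 2 pairs of smallest adjusted p lay near Esp38 and were lower in both tables. Their groups overlapped, and deposited enrichment was 0.16 to 0.25, below the antibody background. Near Ide, the susceptible site held 197, 187, 171 and 153 normalised reads in the susceptible libraries, against 231, 239.6, 256 and 257 in the control libraries, and the resilient site described above was also lower. A site 279 kb from Zfp804b at chr5:6488601-6490000 had the same coordinates in both tables. It held 48.4, 52.4, 58.1 and 76.6 normalised reads in the susceptible libraries, against 108, 97.9, 91.7 and 103 in the control libraries, and 68.96, 63.2, 53.9 and 84.8 normalised reads in the resilient libraries, against 111, 101, 93.8 and 105 in the control libraries with the scaling of the resilient table. All stressed libraries were below all controls in both.

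The 4 pairs of opposite direction lay near Slc16a14, Cavin4, Paxip1 and in Snhg14. Near Cavin4, a caveolar protein gene, the susceptible site at chr4:48674301-48675300 held 58.3, 53.3, 62.9 and 52.9 normalised reads in the susceptible libraries, against 77.2, 93.3, 78.9 and 69.2 in the control libraries. The resilient site at chr4:48675201-48676600 overlaps it by 100 bp and held 130.2, 126, 138 and 111 normalised reads in the resilient libraries, against 95.2, 101, 86.1 and 101 in the control libraries. Near Paxip1, a BRCT-domain protein of histone methylation and DNA repair, the higher susceptible site held 166, 169, 179 and 199 normalised reads in the susceptible libraries, against 138, 118, 132 and 118 in the control libraries with groups apart, while the lower resilient site held 121, 83.1, 104 and 101 normalised reads in the resilient libraries, against 115, 130.4, 145 and 129 in the control libraries with resilient library 27 inside the control range. These differences between outcomes were not tested, and each pair covers only partly the same bases.

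Few intergenic sites recurred in the authors' other tables. Rows of the H3K27me2 tables, from other libraries of the same cohort, overlapped 14 susceptible sites (1.31%) for susceptible mice and 18 resilient sites (2.88%) for resilient mice. In the first, 13 of the 14 were lower for both marks. Overlaps of resilient sites with the resilient H3K27me2 table were less uniform. Counted as pairs of a site and a row, since a site can touch several rows, 10 were lower for both marks, 2 higher for both and 7 higher for H3K27me1 and lower for H3K27me2. In the early life stress table, another cohort, 22 susceptible sites (2.06%) and 8 resilient sites (1.28%) overlapped a row, in both directions. At chr6:114571501-114574600 between Hrh1 and Atg7 the early life stress row was also lower, with a deposited log2 change of -0.14, and near Gm31371 a resilient site with 0.26 overlapped an early life stress row with 0.30.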

How the data were processed

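H3K27me1 CUT&RUN libraries of the nucleus accumbens, 4 each from susceptible, resilient and control male mice, were analysed through the authors' deposited tables of differential sites. Per the labels' protocols, isolated nuclei were incubated with antibody and cut with micrococcal nuclease. The submitters' processing notes name Bowtie2 2.4.1, cutadapt 2.10, MACS2 2.2.6, SAMtools 1.10, Trim Galore 0.6.5 and the mm10 build. Per the file headers, sites were called with diffReps by a G-test, which pools the libraries of a group, in 1000-bp windows moved by 100 bp and kept at a p under 0.0001. A rebuilt G-test matched the deposited p to 0.05 on the log10 scale at 99.9% of rows of both tables.

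The deposited normalised reads per library are a signal, reads divided by a constant of each library, per the file headers. The authors' log2 fold changes are of stressed over control means. The deposited enrichment is a ratio over IgG. The deposited p-value was adjusted by the authors over 270324 windows (susceptible) and 275586 windows (resilient). Only windows past the limit are listed. Depth per the file headers was 20.57 to 30.39 reads per 1000-bp bin, close between groups.

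Sites were placed against 21951 protein-coding genes of GENCODE M21. Members, lists and tests were chosen with earlier results of these data known. Limma 3.58.1 (R 4.3.3) on log2(normalised reads + 1) was fitted to all rows of each table without covariates. Its p-values come from rows chosen on the same libraries. Fold changes on that scale understate changes of low reads. Python 3.11.15, pandas 2.3.3, numpy 2.4.6 and scipy 1.17.1 were used, and the G-test script was tested on simulated data. Named sites were the 5 higher and 5 lower of smallest adjusted p per table with a mean of at least 10 reads and an enrichment of at least 1, the 3 longest runs, the 5 non-coding genes with most sites, the 3 farthest sites, and leading sites of lists and of shared pairs. Other runs, nearest genes, snoRNA, microRNA and promoter sites were named after their values were seen. SnoRNA sequences are from GENCODE and microRNA and promoter sequences from RefSeq.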

Additional observations from a re-analysis of the deposited data

Results flagged for a closer look

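At the resilient site near Esp38, chr17:39842601-39845500, resilient library 33 held 3523.18 normalised reads and the other resilient libraries at most 2864.22, a gap of 0.949 of the group's range. Among 86 groups of 4 libraries examined at named sites it was the only one past Dixon's 95% critical value, which chance passes in about 5% of such groups. Control library 31 was also the highest control there. The deposited enrichment over IgG was 0.17 in both groups, so the signal was below the antibody background. The site touches the lincRNA gene Gm26917, and the adjoining resilient site at chr17:39846201-39849500 touches the rRNA gene CT010467.1. No mappability track was used here, and whether the reads of the flagged site come from sequence present in several copies was not tested.

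Near Cavin4 a susceptible site was lower, by a deposited log2 change of -0.49, and the overlapping resilient site was higher, by 0.40. All 4 susceptible libraries lay below and all 4 resilient libraries above the control libraries of their table. The difference between the outcomes was not tested.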

How the results depend on the processing

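The share of higher sites moved with the choice of rows, of scaling and of libraries. With the 3 blocks on chromosomes 7, 12 and 4 kept, 41.4% of susceptible and 69.1% of resilient sites were higher, against 52.9% and 61% of sites past the limit without them. At an adjusted p of 0.001 the susceptible share was 57.5%. Library scaling recomputed from the listed rows draws directions toward balance. With it the resilient share was 50.4%, or 39.1% within 10 kb and 64.9% beyond 100 kb of a coding gene, against 49.3% and 73.9%. Beyond 100 kb the susceptible share was 75.9% without sites on any annotated gene and 78.9% with each run counted once, against 70.4%. The cause was not tested. Alternatives by distance class, and the one without sites on RefSeq coding genes, were added after seeing the data.

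Leaving out 1 library at a time gave susceptible shares of 51.6% to 61% and resilient shares of 53.1% to 71%. The sites still past the authors' limit then numbered 446 to 725 and 304 to 379, against 1000 and 575 with the test rebuilt on all libraries. Within 10 kb these ranges were 41.4% to 53.5% and 42.4% to 59.2%, and beyond 100 kb 68.8% to 79.6% and 67.1% to 79.3%. Sites with an unadjusted limma p under 0.05 numbered 857 to 1001 (susceptible) and 540 to 567 (resilient). Runs of 3 or more sites numbered 45 and 66 at 50 and 500 kb for susceptible mice and 25 and 35 for resilient mice, and shared sites 107 with a larger overlap and 110 at a stricter adjusted p, against 119. Of the settings run on named sites, 374 of the susceptible ones left a site on its side of an unadjusted limma p of 0.05, called or not, 4 brought it past that limit and 18 took it out, and 351, 15 and 8 of the resilient ones. No named site reversed in these settings.

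No paired analysis was possible because the groups share no library number and no label pairs libraries. Count models were not run, since the tables list normalised reads and no count column. Base composition was not run, since no genome was used here. With 4 libraries a group, single sites were not resolved after adjustment over all windows.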
